A study of Homo sapiens and Mus musculus with 36 samples.

Results

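RNA levels were compared between WEHI-231 cells given MS8815 at 1 uM for 16 h and WEHI-231 cells given DMSO, the solvent control, in 2 libraries of each group. WEHI-231 is an established mouse B-lymphoma line that carries surface IgM. The genes described are those of the authors' deposited table for this comparison that average 10 or more normalized counts, 13476 of its 16392 genes, and the comparison used 4 of the 36 libraries of the series. The series asks how EZH2 and the sterol regulator SREBP2 shape transcription and metabolism in cancer cells, and its other libraries came from human liver cancer lines or from the other compounds given to WEHI-231. MS8815 is named as a PROTAC against EZH2, a compound that brings a protein to a ubiquitin ligase for degradation. EPZ-6438, an inhibitor of the catalytic site of EZH2, and MS8815N, an analog of MS8815 without PROTAC activity, were given to WEHI-231 cells at the same dose for the same time. All groups came from this 1 cell line, the medium of every group held 2-mercaptoethanol, and whether replicate libraries were grown as separate cultures is not stated in the labels. The p-values therefore measure the spread between these libraries, which may be technical.

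EZH2 is the catalytic subunit of the Polycomb complex PRC2, which trimethylates histone H3 at lysine 27 at silenced genes, and it is highly expressed in dividing B cells of the germinal centre. SREBP2 is held in the endoplasmic reticulum while sterols are plentiful and is released, when sterols fall, to switch on the genes of cholesterol synthesis and uptake. ATF4 is the effector of the integrated stress response and drives genes of amino acid uptake and synthesis, and NRF2 drives genes of antioxidant defence.

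In the authors' deposited table for MS8815, 570 genes were higher and 1259 lower at an adjusted p under 0.05, which is 5.34% and 11.8% of the 10671 genes that carry an adjusted p. Those genes all have a mean of at least 50.8 normalized counts, and 2805 genes with a mean between 10 and that level carry a p-value alone. At least 2-fold changes numbered 98 higher and 43 lower, and the median log2 fold change was 0.53 among the higher genes and -0.33 among the lower ones. Fold changes moved with the level of the gene: over 6 equal groups of genes from the lowest to the highest mean, the median log2 fold change went from 0.16 to -0.13. The same groups went from 0.04 to -0.02 under EPZ-6438 and from 0.02 to -0.02 under MS8815N. With the running median of 501 genes of like mean subtracted, an alternative chosen after the data were seen, 803 genes were higher and 557 lower, so the share of calls that were higher went from 31.2% to 59.0%. With the single median of all tested genes subtracted, 666 were higher and 957 lower, or 41.0% higher. Counts after the running median was subtracted are called level-adjusted below. Each list count below stands beside 5.34% of all tested genes higher and 11.8% lower. Level-adjusted counts stand beside 803 higher and 557 lower of those 10671 genes.

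**Figure D1:**
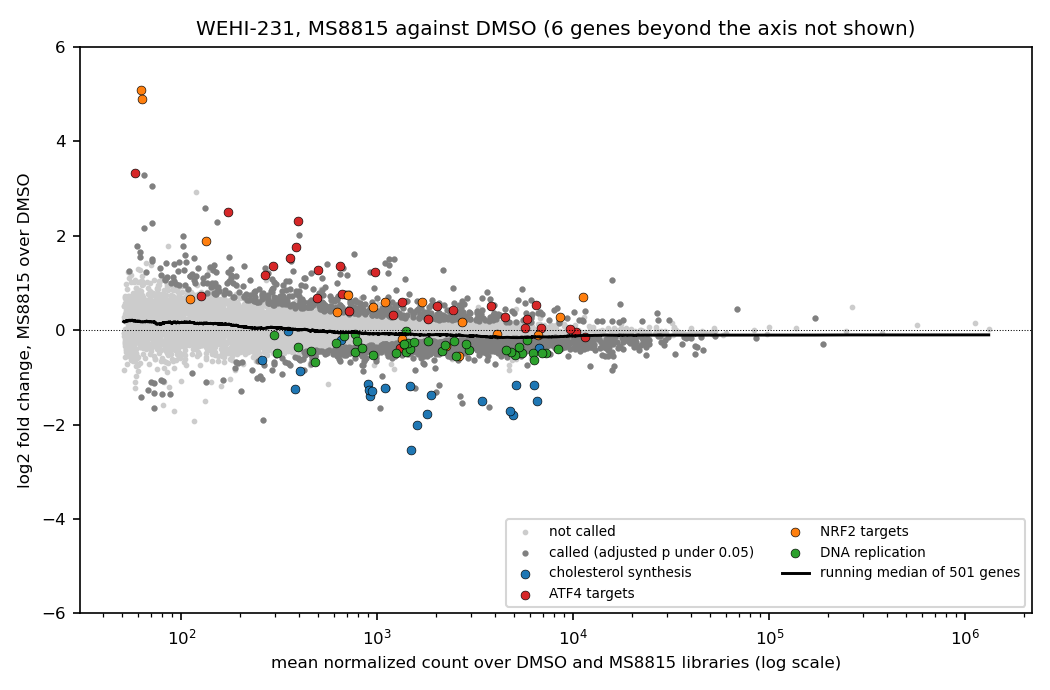
Each point is 1 of the genes with an adjusted p in the authors' deposited table, with its mean normalized count on a log axis and its log2 fold change of MS8815 over DMSO. The black line is the running median of 501 genes, which lies above 0 at low means and below 0 at high means, and the cholesterol synthesis genes lie below it while most ATF4 targets lie above it.

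The values of single libraries were not analysed here, so the level in each group was rebuilt from the deposited mean and fold change, in normalized counts, and given as the level under DMSO to that under MS8815. Every log2 fold change, SE and adjusted p against DMSO is the value in the authors' deposited table for that compound, and the word deposited marks these values. The DMSO levels rebuilt from the MS8815 and EPZ-6438 tables matched with an interquartile range, in log2 units over genes, of 0.0196 as deposited. With the sign of the EPZ-6438 fold changes turned, that range was 0.137. Between the MS8815 and MS8815N tables it was 0.0260 as deposited and 0.136 with the MS8815N sign turned. All 8 B-cell markers were measured, with means from 2638 (Ebf1) to 52661 (Ighm) normalized counts. Of the T-cell markers Cd3e, Cd4 and Cd8a were not listed, but Lck and Zap70 were measured and their calls were lower, and the summed level of the list went from 2205 under DMSO to 1531 under MS8815. On the wider list of T-cell genes, 6 of them tested, 1 rose and 2 fell. Cd8b1 was the higher one, with 0.35 (SE 0.12), and Tcf7 stood at 0.63 (SE 0.25) and was not called. The myeloid list, without S100a8 and S100a9, summed to 355 and 525, the stromal and endothelial list to 1339 and 1286, and no erythroid marker was listed. The part of such markers in the results was not tested, and in bulk RNA fewer cells of a type and less RNA per cell cannot be told apart. Next to the limit of 10 normalized counts, Gm45309 (mean 10.0, log2 fold change 0.28), Gm14212 (10.0, 0.41) and Cdc42ep2 (10.0, 1.20) were just inside. AC132307.5 (9.98, 1.77), Gm49027 (9.99, 1.97) and Snora15 (9.99, -1.08) were just outside.

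The pathway of cholesterol synthesis was lower almost throughout. Of its 22 listed genes, all measured, 20 fell, none rose and Ebp and Ggps1 were not called, against a background of 11.8% of tested genes lower. The median log2 fold change of the list was -1.26, beside -0.03 over all tested genes, and 20 of 22 were also lower after level adjustment. The list was written with earlier results of the series known, so its count describes these libraries and is no independent evidence of the direction.

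The early, mevalonate steps fell together. Acat2, which joins acetyl units at the first step, fell from 1226 to 556 normalized counts, a deposited log2 fold change of -1.14 (SE 0.12, adjusted p = 2.95e-18). Hmgcs1, which makes HMG-CoA, fell from 7617 to 2199, with -1.79 (SE 0.07, adjusted p = 3.5e-150). The remaining mevalonate enzymes were lower to different degrees. Mvk and Pmvk, the mevalonate kinases, had deposited log2 fold changes of -1.25 (SE 0.18) and -0.87 (SE 0.17), and Mvd, which decarboxylates the product, had -1.22 (SE 0.11). Idi1, the isomerase that makes the isoprenoid building block, fell from 7298 to 2213, with -1.72 (SE 0.06, adjusted p = 2.2e-152). Fdps, the synthase of farnesyl diphosphate, fell from 5039 to 1775, with -1.51 (SE 0.07, adjusted p = 1.02e-93). Ggps1 sits on the branch to protein prenylation rather than on the path to sterols, and its deposited log2 fold change was -0.01 (SE 0.18).

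The sterol-committed steps held the largest decreases of the pathway, Lss and Fdft1. Lss, the lanosterol synthase that closes the sterol rings, had the lowest value of the named genes, those called that averaged 100 or more normalized counts, going from 2527 to 435 normalized counts, a deposited log2 fold change of -2.54 (SE 0.11, adjusted p = 2.52e-115). It stood at 17.2% of its DMSO level. Fdft1, the squalene synthase, fell from 2562 to 638, with -2.00 (SE 0.10, adjusted p = 8.84e-83). Sqle, the epoxidase after it and a rate-limiting enzyme, fell from 7064 to 3140.4, with -1.17 (SE 0.06, adjusted p = 1.05e-73). Next in the path, Cyp51, which removes the first methyl group of lanosterol, fell from 9648 to 3413, with -1.50 (SE 0.07, adjusted p = 1.82e-105). Msmo1, the C4-methyl oxidase, fell from 2787 to 813, with -1.78 (SE 0.10, adjusted p = 2.64e-73). Nsdhl and Hsd17b7, which act with it, had deposited log2 fold changes of -1.39 (SE 0.12) and -1.26 (SE 0.13). The enzymes that strip the methyl groups from lanosterol were thus all lower. Of the last steps, Sc5d had -1.29 (SE 0.12) and Dhcr7 -1.18 (SE 0.12) in the authors' deposited table. The smallest called decreases were those of the sterol reductases Tm7sf2, -0.64 (SE 0.24, adjusted p = 0.0458), and Lbr, -0.38 (SE 0.06, adjusted p = 2.18e-09), and the isomerase Ebp stood at -0.22 (SE 0.14) and was not called. Tm7sf2 lost its call when p-values were adjusted over every gene with a mean of at least 10 (adjusted p = 0.0558). Lbr is also a protein of the inner nuclear membrane that binds the lamina.

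Genes of sterol sensing and transport were in part lower too, while genes of sterol export rose. Among 15 tested sterol-responsive genes that lie outside the synthetic pathway 7 fell and 0 rose, and their median was -0.55; level-adjusted counts were 7 lower and 1 higher. Insig1, the endoplasmic reticulum protein that retains SREBP, fell from 4012 to 1372 normalized counts, a deposited log2 fold change of -1.55 (SE 0.08, adjusted p = 2.07e-87). Stard4, a carrier of cholesterol between membranes, had -1.17 (SE 0.10), and Aacs, which makes acetoacetyl-CoA, -1.23 (SE 0.10). The transcription factors were lower by less. Srebf2, the gene of SREBP2, went from 17296 to 11854, with -0.55 (SE 0.05, adjusted p = 6.22e-24), and Srebf1 from 3142 to 2038, with -0.62 (SE 0.08, adjusted p = 1.82e-12). Scap, which escorts SREBP, stood at -0.10 (SE 0.11), and the proteases that cleave SREBP, Mbtps1 and Mbtps2, at 0.07 (SE 0.10) and -0.16 (SE 0.11), none of them called. Lpin1 had a deposited log2 fold change of -1.21 (SE 2.90) and was not called, with an SE 7.67 times that of genes of like mean. Of 9 tested genes of LXR targets and sterol efflux, 4 rose and 1 fell. Genes that export or store cholesterol were the ones that rose. Abca1, the exporter of cholesterol to apolipoproteins, rose from 678 to 1249.8, with 0.88 (SE 0.12, adjusted p = 1.53e-11). Abcg1, which exports it to HDL, rose from 514 to 849, with 0.72 (SE 0.14, adjusted p = 1.4e-05). Soat1 and Soat2, which esterify cholesterol for storage, had 0.46 (SE 0.14) and 1.25 (SE 0.36) and rose, and Scarb1, the HDL receptor, fell with -0.50 (SE 0.13).

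Fatty acid synthesis fell with sterol synthesis. Of 15 tested genes 9 fell and none rose, against 11.8% of all tested genes lower. Their median log2 fold change was -0.50, and the same number were lower after level adjustment. Fads2, the delta-6 desaturase, fell from 411 to 110.1 normalized counts, a deposited log2 fold change of -1.90 (SE 0.22, adjusted p = 3.5e-15). Fasn, the fatty acid synthase, fell from 7236 to 4364, with -0.73 (SE 0.06, adjusted p = 1.23e-32). Acly, which makes cytosolic acetyl-CoA from citrate, had -0.76 (SE 0.05), and Acaca, the acetyl-CoA carboxylase, -0.44 (SE 0.06). The desaturases did not move alike. The stearoyl-CoA desaturases Scd1 and Scd2 had deposited log2 fold changes of -0.55 (SE 0.05) and -0.85 (SE 0.05). Fads1, the delta-5 desaturase, stood at -0.04 (SE 0.14) and Acss2, which activates acetate, at 0.03 (SE 0.23), neither called.

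**Figure D2:**
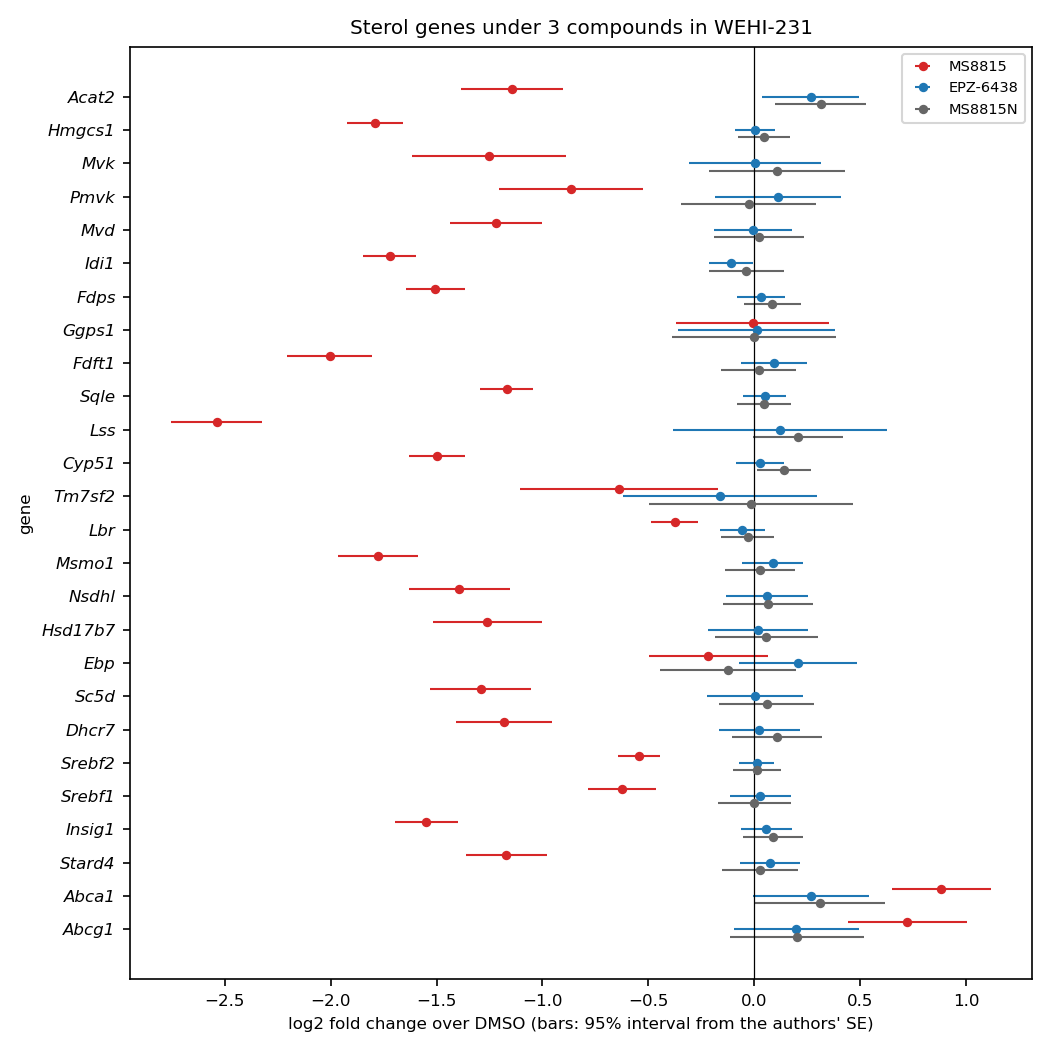
Deposited log2 fold change over DMSO of 26 sterol genes, in the order of the pathway from the top, under MS8815 (red), EPZ-6438 (blue) and MS8815N (grey), with 95% intervals from the authors' SE. The 18 called synthesis genes drawn lie left of 0 under MS8815, whereas under EPZ-6438 and MS8815N no synthesis gene was called, and Abca1 and Abcg1 lie right of 0.

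Targets of ATF4 were higher. Of 29 tested members 22 rose and 2 fell, against 5.34% of all tested genes higher, with a median log2 fold change of 0.53, and level-adjusted counts were 24 and 1. Atf4 itself rose by little, from 5309 to 6249 normalized counts, a deposited log2 fold change of 0.24 (SE 0.06, adjusted p = 0.00126). Its transcription factor and stress targets rose by more. Ddit3, the gene of CHOP, rose from 175 to 590.4, with 1.76 (SE 0.18, adjusted p = 3.66e-19). Trib3, a pseudokinase that feeds back on the response, rose from 133 to 655, with 2.30 (SE 0.19, adjusted p = 1.33e-32). Chac1, which degrades glutathione, rose from 184 to 531, with 1.53 (SE 0.19, adjusted p = 4.87e-14). Sesn2, which restrains mTORC1 when leucine is scarce, had 1.23 (SE 0.12), and Cebpb 1.36 (SE 0.15).

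Amino acid genes of the same list rose unevenly. Asns, the asparagine synthetase, rose from 1060.3 to 1601 normalized counts, with a deposited log2 fold change of 0.59 (SE 0.10, adjusted p = 2.63e-07). Aldh1l2, a mitochondrial folate enzyme, rose from 51.9 to 295, with 2.51 (SE 0.28, adjusted p = 1.71e-16), whereas Mthfd2, which acts beside it, had 0.28 (SE 0.07). In serine synthesis Psph had 0.31 (SE 0.11) and was called, while Phgdh and Psat1 stood at -0.03 (SE 0.05) and 0.05 (SE 0.06) and were not. Transporters were mostly higher. Slc7a5 and Slc3a2, the chains of a leucine transporter, had deposited log2 fold changes of 0.53 (SE 0.06) and 0.52 (SE 0.07). Slc7a3, a carrier of cationic amino acids, rose from a low level of 10.6 to 105, with 3.32 (SE 0.52, adjusted p = 1.3e-08), and Slc6a9, the glycine transporter, had 1.36 (SE 0.23). The 2 members that fell were Cbs, the first enzyme of transsulfuration, with -0.38 (SE 0.10), and Slc38a2, a glutamine carrier, with -0.14 (SE 0.05). Slc38a2 was not called after level adjustment. The next enzyme of transsulfuration, Cth, rose with 1.28 (SE 0.16). Of 19 tested aminoacyl-tRNA synthetases, which charge tRNAs, 4 rose and 5 fell, and level-adjusted counts were 9 and 0. Nars (asparagine) and Aars (alanine) rose, with 0.38 (SE 0.10) and 0.34 (SE 0.06), as did Cars and Sars, with 0.27 and 0.21. The synthetases that fell were Dars, Kars, Rars, Vars and Farsa, with values from -0.21 (Rars) to -0.28 (Farsa).

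Genes of antioxidant defence were higher in part. Of 17 tested NRF2 targets 9 rose and 2 fell, with a median log2 fold change of 0.48, and level-adjusted counts were 11 and 1. Adjusted over every gene with a mean of at least 10 the counts were 12 and 2. Nqo1, the quinone reductase, had the widest change of the list, from 3.55 to 121 normalized counts, a deposited log2 fold change of 5.09 (SE 0.69, adjusted p = 1.1e-11). Osgin1 rose likewise from a low level, 4.1 to 122, with 4.90 (SE 0.65, adjusted p = 6.65e-12). Nqo1 and Osgin1 passed the limits on the mean only through their MS8815 level, so their calls are no support for the list. Among members with a mean of at least 100, 7 rose and 2 fell. Hmox1, the haem oxygenase, rose from 57.1 to 210.5, with 1.88 (SE 0.31, adjusted p = 6.55e-08). Glutathione and iron genes moved less. Gclc and Gclm, the subunits of the enzyme that starts glutathione synthesis, had 0.74 (SE 0.13) and 0.48 (SE 0.12), and Gsr and Txnrd1, reductases of glutathione and thioredoxin, 0.61 (SE 0.12) and 0.59 (SE 0.11) in the authors' deposited table. The ferritin chains Ftl1 and Fth1 had 0.70 (SE 0.05) and 0.28 (SE 0.06). The members that fell were the pentose phosphate enzymes Tkt, -0.54 (SE 0.08), and Pgd, -0.32 (SE 0.09), of which Pgd was not called after level adjustment. Sqstm1, an autophagy receptor on the lysosome list, rose from 3843 to 7035, with 0.87 (SE 0.06, adjusted p = 1.68e-43). Of the 22 tested members of that list 5 rose and 1 fell, and 6 and 0 after level adjustment.

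**Figure D3:**
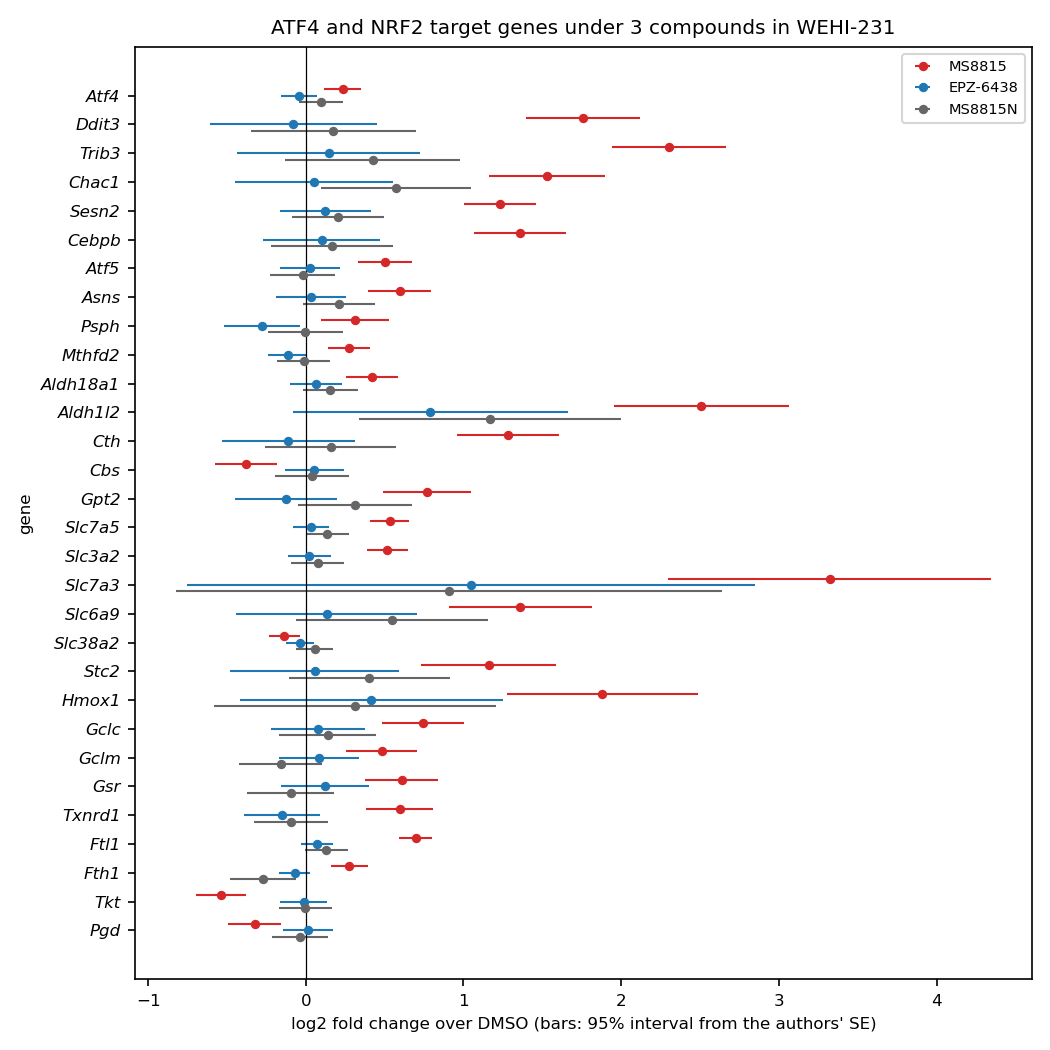
Deposited log2 fold change over DMSO of 30 ATF4 and NRF2 target genes, chosen for display after their values were seen, under MS8815 (red), EPZ-6438 (blue) and MS8815N (grey), with 95% intervals from the authors' SE. Most MS8815 points lie right of 0, Cbs, Slc38a2, Tkt and Pgd lie left of it, and no gene shown was called under EPZ-6438 or MS8815N.

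The unfolded protein response moved in a few members. Of 20 tested genes 7 rose and none fell, against 5.34% of all tested genes higher. Their median log2 fold change was 0.12, and 11 were higher after level adjustment. The sensors Ern1 and Eif2ak3 rose, with 1.11 (SE 0.27) and 0.63 (SE 0.13), as did Herpud1, a protein of endoplasmic reticulum degradation, with 0.69 (SE 0.07). Hspa5, the main chaperone of the compartment, went from 15951 to 18057 normalized counts, a deposited log2 fold change of 0.18 (SE 0.05, adjusted p = 0.00284), and Hsp90b1 and Calr stood at -0.01 (SE 0.04) and -0.03 (SE 0.05) and were not called. Of 12 tested heat shock genes 2 rose and 6 fell, with level-adjusted counts of 1 and 4. Hspa1b, the inducible HSP70, and Hspb1 rose, with 1.46 (SE 0.19) and 0.96 (SE 0.35), and Hsf1, the factor that drives them, fell with -0.52 (SE 0.20). Hspb1 was not called after level adjustment. The other members that fell were Hspa4, Hsp90aa1, Dnaja1, Hspe1 and Hspd1, with values from -0.38 (Hspa4) to -0.25 (Hsp90aa1).

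Many genes of DNA replication were lower. Of 38 genes, all tested, 27 fell and 0 rose, against 11.8% of all tested genes lower. Their median log2 fold change was -0.39, and the lowest and highest values were -0.67 (Gins2) and -0.02 (Rfc1). After level adjustment 19 were lower and the median was -0.31. Of the MCM2-7 helicase that unwinds DNA, all 6 subunits fell. Mcm4 went from 5946 to 4138 normalized counts, with a deposited log2 fold change of -0.52 (SE 0.06, adjusted p = 9.71e-14), and the other subunits lay between -0.49 (Mcm3) and -0.47 (Mcm7). Pcna, the sliding clamp, fell from 7659 to 4958, with -0.63 (SE 0.06, adjusted p = 1.69e-22). Loading and firing factors were lower too, with Cdc6 at -0.46 (SE 0.10), Cdt1 at -0.44 (SE 0.08), Cdc45 at -0.49 (SE 0.10) and Gins2 at -0.67 (SE 0.16). Rfc1, Rfc3 and Rfc4 of the clamp loader, Gins3, Gins4 and Mcm10 were not called. Nucleotide supply was lower through Rrm1, -0.39 (SE 0.05), and Dut, -0.54 (SE 0.08), whereas Tyms stood at -0.25 (SE 0.10) and was not called. The calls of Orc2, Rfc2, Pola2, Pold1, Pole, Prim1, Prim2 and Fen1 were lost after level adjustment.

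**Figure D4:**
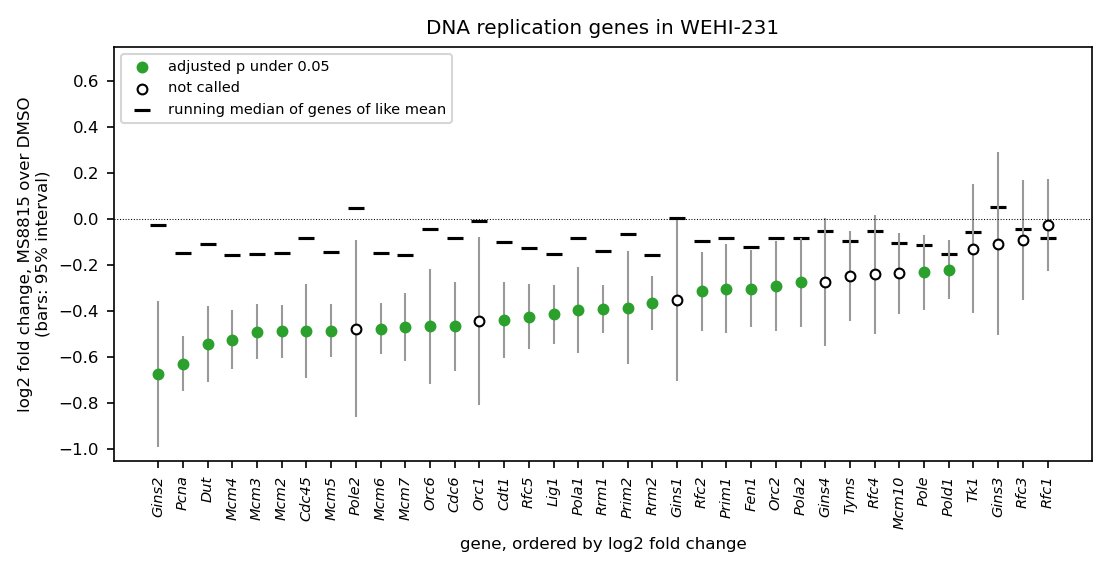
Deposited log2 fold change of MS8815 over DMSO for 37 of the 38 DNA replication genes, with 95% intervals, filled where the adjusted p was under 0.05; the black dashes are the running median of genes of like mean. All 37 points lie below 0, and 26 are filled.

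Other cell cycle genes moved less. Of 32 mitosis genes 13 fell and none rose, at a median of -0.17, against 11.8% of all tested genes lower. After level adjustment Kif20a, Mad2l1, Cdk1 and Ccna2 were lower, 4 of 32, against 557 of the 10671 tested genes. Kif20a, a kinesin of cytokinesis, fell from 775 to 507 normalized counts, with a deposited log2 fold change of -0.61 (SE 0.18, adjusted p = 0.00508). Cdk1, the mitotic kinase, fell from 2352 to 1785, with -0.40 (SE 0.09, adjusted p = 0.000152). Mki67, which marks dividing cells, stood at -0.16 (SE 0.05), and after level adjustment at -0.06 with no call. Of 15 tested G1 regulators 7 fell (3 after level adjustment), among them Ccne1, -0.51 (SE 0.08), and Cdk4, -0.38 (SE 0.06), and the inhibitor Cdkn1b, -0.31 (SE 0.11). The inhibitor Cdkn1a stood at 0.24 (SE 0.19) and was not called. Of 26 tested genes of MYC and ribosome biogenesis 14 fell and none rose, against 11.8% of all tested genes lower. Their median was -0.30, and 8 were lower after level adjustment. Myc itself stood at -0.11 (SE 0.06) and was not called, while the nucleolar proteins Gnl3 and Fbl fell, with -0.40 (SE 0.09) and -0.39 (SE 0.06).

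Of 40 tested B-cell identity genes 17 fell and 2 rose, against 11.8% and 5.34% of all tested genes, at a median log2 fold change of -0.12, but genes of like level had a median of -0.11. With the single median of all tested genes subtracted 11 were lower, and level-adjusted counts were 3 higher and 3 lower. Ighm, the heavy chain of IgM, went from 54978 to 50344 normalized counts, a deposited log2 fold change of -0.13 (SE 0.05, adjusted p = 0.0377). Pax5, the B-cell commitment factor, stood at -0.08 (SE 0.05), and Ms4a1, a surface protein of B cells, at -0.01 (SE 0.06), neither called. The members lower both before and after level adjustment were Ebf1, a factor of B-cell specification, with -0.36 (SE 0.08), Ptpn6, the phosphatase SHP-1, with -0.52 (SE 0.05), and Fcmr, the IgM Fc receptor, with -0.45 (SE 0.07). Foxo1 and Vpreb3 rose, with 0.48 (SE 0.09) and 0.58 (SE 0.16). Of 22 tested genes of B-cell receptor signalling 10 fell, and 3 were lower and 3 higher after level adjustment. Over all 10671 tested genes the level-adjusted counts were 557 lower and 803 higher.

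Some genes of plasma cells and of migration rose. Of 15 tested plasma cell genes 5 rose and none fell, against 5.34% of all tested genes higher. Their median was 0.27, and 7 were higher after level adjustment. Of the 5, Xbp1 and Herpud1 are also on the unfolded protein response list, and Irf4 on the PRC2-repressed and NF-kB lists. The 10 members not called lay between -0.02 (Sec11c) and 0.70 (Sdc1). Tent5c, a poly(A) polymerase that stabilises immunoglobulin mRNA, rose from 597 to 1691 normalized counts, a deposited log2 fold change of 1.50 (SE 0.11, adjusted p = 1.65e-39). Xbp1 and Irf4, factors of secretory differentiation, rose by little, with 0.26 (SE 0.09) and 0.29 (SE 0.06), and Creb3l2 with 0.45 (SE 0.12). Prdm1, the gene of BLIMP-1, went from a low level of 7.2 to 41.4, with a deposited log2 fold change of 2.52 (SE 0.76) and no adjusted p of the authors. Adjusted over every gene with a mean of at least 10 its p was 0.0096. Prdm1 reached that mean only through its MS8815 level, so this p is no support for a rise. Of 17 tested genes of migration 5 rose and none fell, and 6 were higher after level adjustment. Ccr7, the chemokine receptor that guides B cells to T-cell zones, rose from 220.1 to 523, with 1.25 (SE 0.18, adjusted p = 4.34e-10), and S1pr1, which guides exit from lymphoid tissue, from 52.6 to 143, with 1.44 (SE 0.35, adjusted p = 0.000635). Of the BCL2 family, 3 of 18 tested members rose and 2 fell, with level-adjusted counts of 2 and 1. Bmf and Bbc3, which promote apoptosis, rose with 1.51 (SE 0.51) and 0.56 (SE 0.17), as did Bcl2l1, which restrains it, with 0.63 (SE 0.21), while Mcl1, which restrains it as well, fell with -0.25 (SE 0.05). The other member that fell was Bid, with -0.27.

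The mRNA of the targeted gene and of its complex moved little. Ezh2 went from 3655 to 3094 normalized counts, to 84.6% of DMSO, with a deposited log2 fold change of -0.24 (SE 0.07, adjusted p = 0.00648), and after level adjustment it stood at -0.11 with an adjusted p of 0.378. A PROTAC acts on protein, so this mRNA is no check of the compound. Of 13 tested PRC2 subunits 4 fell and none rose, the others that fell being Suz12, -0.29 (SE 0.08), and the histone-binding subunits Rbbp4, -0.31 (SE 0.06), and Rbbp7, -0.35 (SE 0.05). After level adjustment 1 of these, Rbbp7, was lower, and the accessory subunit Jarid2 was higher. Eed, which binds the methylated histone, stood at -0.45 (SE 0.23) and was not called. Of 38 genes listed as PRC2-repressed in lymphoid cells, 20 averaged 10 or more normalized counts and 14 were tested. Of these 14, 3 rose and 2 fell. Adjusted over every gene with a mean of at least 10, 4 rose and 2 fell. The other members had lower means or were not listed in the authors' deposited table, so these counts do not cover them. Cd69, an early activation antigen, rose from 1072 to 1579, with 0.56 (SE 0.11, adjusted p = 4.21e-06), and Txnip, which inhibits thioredoxin, and Irf4 had 0.38 (SE 0.13) and 0.29 (SE 0.06). Runx3 and Wnt10a fell, with -0.24 (SE 0.08) and -0.22 (SE 0.06), and lost their calls after level adjustment. Of 39 HOX genes, 12 averaged 10 or more normalized counts and 7 were tested, none of them called.

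Beyond these groups, the highest fold change of the named genes, those called that averaged 100 or more normalized counts, was that of Prlr, the prolactin receptor. It rose from 37.6 to 226 normalized counts, a deposited log2 fold change of 2.59 (SE 0.35, adjusted p = 2.26e-11). Prlr reached the mean of 100 only through its MS8815 level. Aldh1l2 and Trib3 followed, then Fam219a with 2.28 (SE 0.37) and Tubb2a, a beta-tubulin, with 2.02 (SE 0.18). Acsbg1, an acyl-CoA synthetase, had 2.00 (SE 0.38), Zyx, a protein of focal adhesions, 1.78 (SE 0.38), and Hpse, the heparanase, 1.56 (SE 0.27). Of the 12 lowest genes under the same rule, all but Fads2 were on the lists of cholesterol synthesis or sterol-responsive genes. Exosc6, Mocos, Zfp458 and the predicted gene Gm28048, picked out after their values were seen, were called with rebuilt levels near 0 in 1 group, so their deposited fold changes depend on the fit and are not given. Among the most abundant called genes changes were small, with Actb at -0.30 (SE 0.05), Eef2 at 0.26 (SE 0.05) and Ptma at -0.41 (SE 0.05). Glycolytic genes were lower in part, with 7 of 28 tested members of the hypoxia and glycolysis list lower and 4 higher, and 6 and 5 after level adjustment. Tpi1 and Ldha fell, with -0.81 (SE 0.29) and -0.54 (SE 0.05), and Vegfa, the vascular growth factor, rose from 276 to 638, with 1.21 (SE 0.17, adjusted p = 2.46e-10).

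Other lists held calls in some of their members, beside 5.34% of all tested genes higher and 11.8% lower. Of MHC class II genes 2 of 12 tested rose (4 after level adjustment), Ciita with 0.49 (SE 0.11) and H2-Aa with 0.20 (SE 0.06). The median of this list was 0.12 under MS8815 and 0.10 under EPZ-6438, where 2 members were called. Between these compounds no member had a called difference. Of MHC class I genes 6 of 20 fell (2 after level adjustment), among them the immunoproteasome genes Psmb8, -0.29 (SE 0.11), and Psmb10, -0.31 (SE 0.11), and the activator subunits Psme1 and Psme2. Of 31 proteasome subunits 5 rose and 1 fell, and 12 and 0 after level adjustment, with Psmd4 at 0.31 (SE 0.09). Of 26 p53 targets 4 rose and 4 fell, and 5 and 2 after level adjustment, the highest being Gadd45a, 1.38 (SE 0.31). Of 26 NF-kB targets 3 rose and 3 fell, and 4 and 2 after level adjustment. Of 17 immediate early genes 4 rose and 1 fell, and 5 and 1 after level adjustment, with Nr4a3 at 1.17 (SE 0.31) and Egr1 at -0.53 (SE 0.08). Of 12 genes of the ubiquitin ligases that PROTACs recruit, 3 fell and 0 after level adjustment, and Vhl and Crbn stood at 0.21 (SE 0.18) and -0.17 (SE 0.11), not called.

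**Figure D5:**
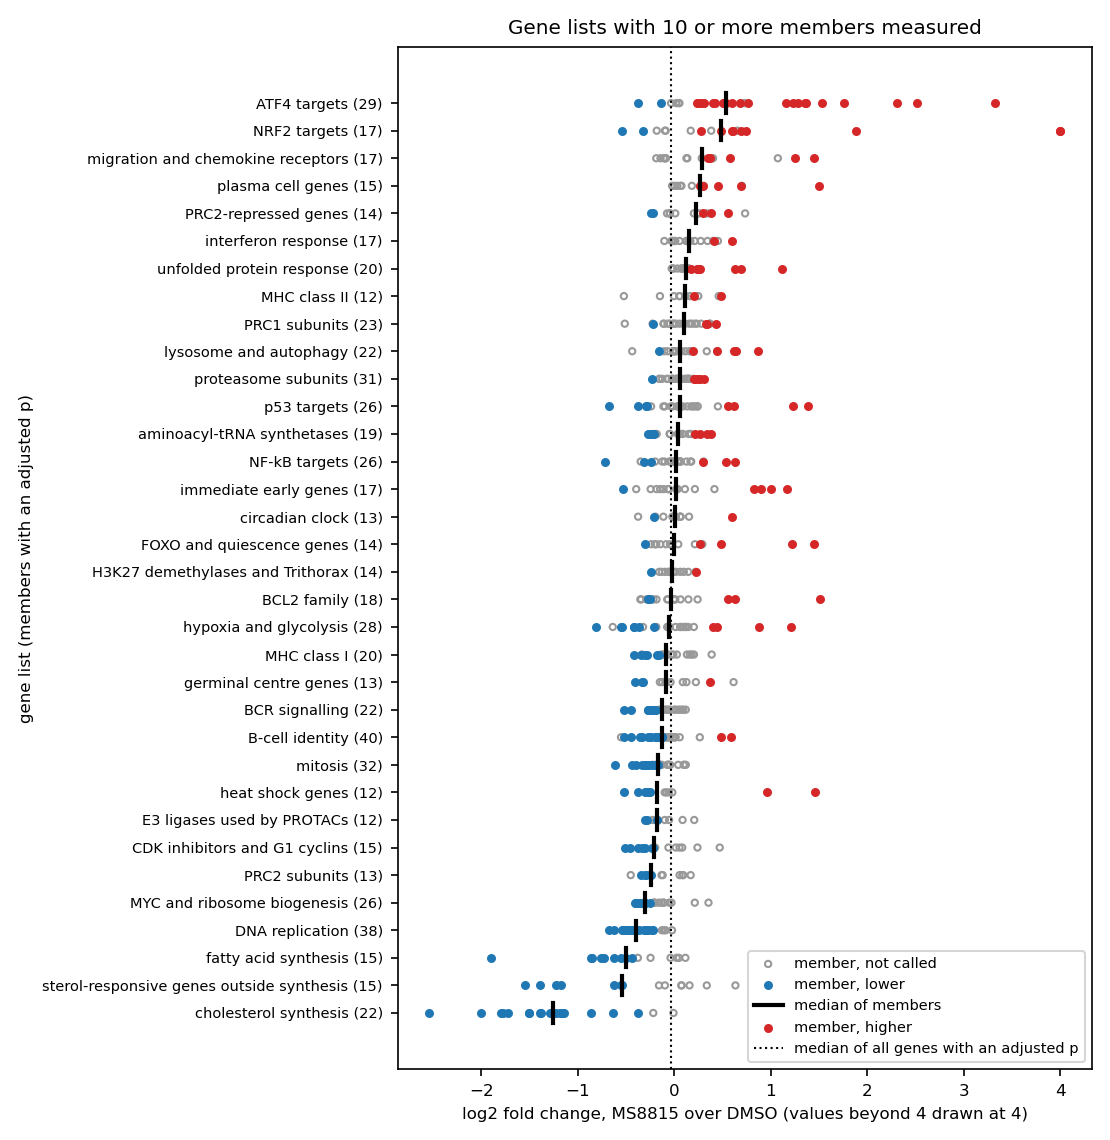
Each row is a gene list with 10 or more members that carry an adjusted p, each point a member at its deposited log2 fold change of MS8815 over DMSO (red higher, blue lower, open not called), and each bar the median of the members. Cholesterol synthesis has the lowest median, -1.26, and ATF4 targets the highest, 0.53.

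The inhibitor and the non-PROTAC analog at the same dose and time gave few calls against the same DMSO libraries. In the authors' deposited tables, 18 genes were higher and 18 lower under EPZ-6438, of 13183 tested, and 8 higher and 11 lower under MS8815N, of 13167. At an unadjusted p under 0.05 these comparisons held 412 and 319 of those genes, and that of MS8815 held 2859 of 10671. The sets are unlike, since the MS8815 genes have a mean of at least 50.8 and the others of at least 10. The comparisons share their DMSO libraries. The difference between compounds was tested for 2 pairs by dividing the gap between their log2 fold changes by its SE (both variances added), with Benjamini-Hochberg adjustment over all genes. Under MS8815, 149 genes (1.14%) were higher and 376 (2.87%) lower than under EPZ-6438, and 86 (0.657%) were higher and 248 (1.89%) lower than under MS8815N. With p-values adjusted over both pairs together, 500 and 355 genes differed, and with the running medians of each table subtracted 387 and 238. This test ignores the covariance that the shared libraries give. With a covariance of 0.5 times the smaller variance, 1304 and 987 genes differed.

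Sterol genes differed between MS8815 and both other compounds. Of 22 cholesterol synthesis genes 19 were lower under MS8815 than under EPZ-6438, with a median difference of -1.28, and 19 were lower than under MS8815N, with a median of -1.36. Lss differed from EPZ-6438 by -2.66 (95% interval -3.21 to -2.11) and from MS8815N by -2.75 (95% interval -3.05 to -2.45). The deposited log2 fold change of Lss was 0.12 (SE 0.26) under EPZ-6438 and 0.21 (SE 0.11) under MS8815N. Fdft1, Fads2 and Hmgcs1 were among the 5 largest lower differences against each compound. For Hmgcs1 the difference was -1.80 (95% interval -1.96 to -1.63) from EPZ-6438 and -1.84 (95% interval -2.02 to -1.66) from MS8815N. Of 15 fatty acid synthesis genes 9 were lower under MS8815 than under each of the others, and of 38 DNA replication genes 13.

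ATF4 targets were in part higher under MS8815 than under either of the others. Under MS8815 18 of 29 were higher than under EPZ-6438 and 8 higher than under MS8815N, while 1, Cbs, was lower than under EPZ-6438, and the median deposited log2 fold changes were 0.03 under EPZ-6438 and 0.16 under MS8815N. Trib3 differed by 2.16 (95% interval 1.47 to 2.84) from EPZ-6438 and by 1.88 (95% interval 1.22 to 2.54) from MS8815N, where its own deposited values were 0.15 (SE 0.30) and 0.42 (SE 0.28). Ddit3 differed by 1.84 (95% interval 1.20 to 2.48) and 1.58 (95% interval 0.95 to 2.22). Chac1 was 0.57 (SE 0.24) under MS8815N in the authors' deposited table and was not called, and its difference was 0.95 (95% interval 0.35 to 1.56). Of 15 NRF2 targets compared, 4 were higher and 1 lower under MS8815 than under EPZ-6438. Against MS8815N 5 of the 15 were higher and 1 lower, so most NRF2 targets showed no called difference between compounds. Tubb2a was higher under MS8815 than under both, and Trafd1 and Ccr7 were among the 5 largest higher differences from MS8815N.

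Some differences rested on values of the other compounds. Rcan1 had the largest higher difference from EPZ-6438, but its deposited log2 fold change was -10.55 (SE 1.47) under EPZ-6438 and -0.65 (SE 1.41) under MS8815, with an SE 6.18 times that of genes of like mean. Lars2, a mitochondrial leucyl-tRNA synthetase, was lower than under MS8815N, where its deposited value was 2.00 (SE 0.11), against -0.16 (SE 0.13) under MS8815. No difference was called for Ezh2, -0.18 (95% interval -0.37 to 0.02) from EPZ-6438 and -0.16 (95% interval -0.36 to 0.05) from MS8815N, and those intervals do not show that the compounds act alike on it. For Abca1 the differences were 0.62 (95% interval 0.26 to 0.98) and 0.57 (95% interval 0.19 to 0.96), with adjusted p of 0.025 and 0.0994.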

How the data were processed

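RNA was sequenced from 2 libraries each of WEHI-231 cells under DMSO, MS8815, EPZ-6438 and MS8815N. TruSeq v2 and NEBNext Ultra II kits were both used, per the labels' protocols, and the kit of each library is not stated. STAR 2.4.2 and Salmon are named in the submitters' processing notes, as are the builds GRCh38 and mm10; for strand and other settings the sources used here name none. Per the file headers, each deposited table holds a mean normalized signal per gene over both groups (called normalized counts here), a log2 fold change over DMSO with its SE, a p-value, its adjusted form and a test statistic (a score), laid out as DESeq2 does. That the score equals the fold change over its SE, and that the adjustment is Benjamini-Hochberg's, was checked. The depth of each library is unknown from these tables; the means of the MS8815 table sum to 22702602.

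Genes counted as called average 10 or more normalized counts and have an authors' adjusted p under 0.05. The level under DMSO was rebuilt as 2 times the mean over 1 plus the fold. Differences between compounds were tested by dividing the gap between log2 fold changes by its SE, with both variances added (normal, Benjamini-Hochberg, scipy 1.17.1, pandas 2.3.3, Python 3.11.15). This step was run on simulated data drawn independently for each compound, so that run does not cover the shared DMSO libraries. Intervals are 95% and normal. The members, the 42 gene lists and the tests were chosen with earlier results of these data known, and a list is described by counts and its median, with no set test. Named genes are Ezh2, the 12 highest and 12 lowest log2 fold changes among called genes averaging 100 or more normalized counts, the 6 called genes with the highest mean, members of lists with 3 or more calls, up to 4 called members of other lists, and the 5 largest differences each way; not all are printed, and some genes are counted in their lists but not reported by name or drawn. Predicted genes were counted but not named, except beside the limit on the mean and among called genes with a level near 0 in 1 group. Members printed as not called, and 11 gene families described at the end, were picked with their values known. Alternatives changed the mean minimum, the threshold, the adjustment, the centring and the covariance of shared controls. No sequences or coordinates are given, since the reference used here is of the human genome.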

Additional observations from a re-analysis of the deposited data

How the results depend on the processing

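No paired analysis was possible because no values per library were analysed here; for the same reason leaving out a replicate, a replicate block and a second count tool were not run, so whether 1 library decides a value is not known. At an adjusted p under 0.01, 1197 genes were called, 353 of them higher, and at 2-fold or more 141, of which 98 were higher and 43 lower. With the median of genes of like level subtracted, chosen after the data were seen, 557 genes were lower. Under that setting members lower numbered 1 for PRC2 subunits (and 1 higher), 0 for PRC2-repressed genes, 3 for B-cell identity, 1 for ATF4 targets, 1 for NRF2 targets, 4 for mitosis and 8 for MYC and ribosome biogenesis, and 1 member was higher in the sterol-responsive and in the MYC list. With the single median subtracted, members lower numbered 1 for PRC2-repressed genes, 11 for B-cell identity, 1 for ATF4 targets and 8 for mitosis, and 1 was higher in the sterol-responsive and in the MYC list. Adjusted over every gene with a mean of at least 10, 1 fatty acid gene was higher. Allowing for covariance of the common DMSO libraries, 1304 genes differed from EPZ-6438 and 987 from MS8815N. Of 294 genes with alternatives, 281 kept their call and direction with adjustment over every gene with a mean of at least 10, 261 with the single median subtracted and 208 with the median of genes of like level subtracted; none reversed under these settings. The cause of these shifts was not tested.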

Other observations

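Gene families outside the lists were picked by symbol after their values were seen, and several held many lower members in the authors' deposited table; these counts describe the libraries without testing a family. Of 82 tested nuclear genes of the respiratory chain and ATP synthase, 42 fell and none rose, at a median log2 fold change of -0.30, and 26 were lower after the running median of genes of like mean was subtracted. Atp5b, the beta subunit of ATP synthase, fell from 38888 to 27439 normalized counts, a deposited log2 fold change of -0.50 (SE 0.04, adjusted p = 2.09e-27). The mRNAs of the mitochondrial genome went the other way, with 4 of 13 higher and 1 lower and a median of 0.28, and 6 and 1 after level adjustment. Their median was 0.14 under EPZ-6438 and 0.01 under MS8815N, and 1 member was higher under MS8815 than under EPZ-6438 and 0 than under MS8815N. COX1, a core subunit of cytochrome oxidase, rose from 58126 to 79253, with a deposited log2 fold change of 0.45 (SE 0.06, adjusted p = 1.73e-12), and ND5 and ND6, subunits of complex I, had 0.40 (SE 0.07) and 0.43 (SE 0.09), while ND3 fell with -0.38 (SE 0.08). In the authors' deposited table COX2 and ATP6 had SEs 6.53 and 6.43 times those of genes of like mean and were not called.

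Of 50 tested canonical histone genes, which are made in S phase, 37 fell and none rose, at a median of -0.27, and 15 were lower and 1 higher after level adjustment. On the earlier list of replication-dependent histones, 8 were tested, of which 4 fell and 1, H1f0, rose with 0.72. After level adjustment 2 of that list were lower and 2 higher. Histone genes can share reads between near-identical copies, so single members are uncertain. Against the other compounds, 41 of the 50 were lower under MS8815 than under EPZ-6438 and 30 lower than under MS8815N. The median deposited log2 fold change of these histone genes was 0.10 under EPZ-6438 and 0.09 under MS8815N, where no member was called. The differences thus rest in part on the values of those compounds. Of 30 hnRNP and SR proteins, which package and splice pre-mRNA, 21 fell and none rose, and 12 were lower after level adjustment. Hnrnpd, which binds AU-rich mRNA, fell from 2513 to 1438 normalized counts, a deposited log2 fold change of -0.80 (SE 0.09, adjusted p = 1.52e-16). Of 8 subunits of the chaperonin that folds actin and tubulin 7 fell, with Cct8 at -0.42 (SE 0.07), and 3 were lower after level adjustment. Cytosolic ribosomal protein genes stood near the median of all genes, with 7 of 81 lower, none higher and a median of -0.05, but after level adjustment 7 were higher and 1 lower, so the direction of the calls depends on that setting. Of 51 translation initiation factors 15 fell and 2 rose, and 3 and 3 after level adjustment. Of 10 tubulins 3 fell and 2 rose, of 252 zinc finger genes named Zfp 4 fell and 4 rose, and of 15 aldehyde dehydrogenases and annexins 3 rose and none fell. After level adjustment 2 tubulins were lower and 2 higher, 2 Zfp genes lower and 7 higher, and the counts of the third family did not move. Of 13 nuclear noncoding RNAs 4 rose and none fell, and the counts after level adjustment were also 4 and 0. Neat1 and Malat1 rose, with deposited log2 fold changes of 1.32 (SE 0.18) and 1.06 (SE 0.20), and the SE of Malat1 was 3.83 times that of genes of like mean.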
